A study of Homo sapiens with 6 samples.

Results

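The genes described here are 10 neighbours of P4HA3 on the long arm of human chromosome 11: P4HA3-AS1, PPME1, C2CD3, UCP2, UCP3, PGM2L1, LIPT2, POLD3, KCNE3 and CHRDL2. They were chosen by name and position through the Ensembl identifiers of the count table, and they are 10 of the 60664 genes counted. The rule used no measured value, although earlier results of these data were known when the choice was made. The filter on low counts kept 8 of the 10 for testing, whereas KCNE3 and CHRDL2 had too few reads. RNA-seq compared SiHa PR cells, the parental cells of an established human cervical squamous carcinoma line (SiHa) from which lymph node (LN) metastatic cells had been derived, with the same cells overexpressing P4HA3, in 3 samples per group. The control samples carry only the name SiHa PR, and the paper calls the control of its P4HA3 experiments Vector. For overexpression of P4HA3 the paper describes a cDNA, copied from cellular RNA, in the lentiviral expression vector pCDH. It also describes a FLAG-tagged plasmid and a doxycycline-inducible construct, and which of them the sequenced cells carried is not stated. The promoter of the construct, how much of the transcript outside the coding sequence it holds, and whether the cells were a clone or a pool are not given in the sources used here. No drug treatment or time point is given for either group.

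P4HA3 encodes a catalytic alpha subunit of collagen prolyl 4-hydroxylase, which hydroxylates prolines of collagen chains in the endoplasmic reticulum. Genes that lie side by side can overlap on opposite strands or start from a shared stretch of promoter and run in opposite directions, and a long non-coding RNA read from the other strand of a coding gene is called its antisense RNA. A cDNA carried by a vector holds the exons of a gene without its introns, and a lentiviral vector inserts it elsewhere in the genome. Reads of the cDNA are counted on the native gene. The comparison therefore asked whether genes that overlap or lie near the native P4HA3 differed between cells with and without the added copy. Since whole cultures were sequenced, fewer cells with a transcript and less of it per cell cannot be told apart.

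Counts per library summed to between 21773488 and 24939948. Levels are given as CPM, the count scaled to library size after TMM normalization, and 3 counts in a control library correspond to 0.129 CPM on average. The epithelial keratin genes KRT17, KRT8 and KRT18 were abundant in control cells, with means of 5330, 1820 and 941 CPM, while the squamous markers TP63 and KRT5 were too low to test. Of 7 smooth muscle markers, SMTN was the abundant member, with 93.2 CPM in control and 95.9 CPM in overexpressing cells, and DES, MYH11, CNN1, LMOD1 and SYNPO2 were too low to test. ACTG2, also tested, varied within both groups, with 0, 1 and 30 counts in control and 40, 1 and 44 in overexpressing replicates 1, 2 and 3. Its log2 fold change was 1.42 (adjusted p = 0.305, edgeR). Of 7 immune, endothelial and fibroblast markers, 4 were tested, with control means of 61.6 CPM for COL1A1, 27.5 for DCN, 3.02 for PDGFRA and 2.89 for PECAM1, and CD3E was at 0 in every library. PECAM1, an endothelial adhesion gene, fell by 1.03 on the log2 scale (adjusted p = 0.00494, edgeR). The summed level of the 10 carcinoma markers ran from 7780 to 8950 CPM in control and from 6570 to 7670 CPM in overexpressing libraries, that of the smooth muscle markers from 87.7 to 98.6 and from 87.1 to 103 CPM, and that of the other markers from 93.9 to 96.4 and from 71.1 to 91.5 CPM. Of the 8 carcinoma markers tested, 4 were lower, namely CDH1 (-0.77, adjusted p = 0.00114), KRT18 (-0.40, adjusted p = 0.0108), KRT17 (-0.32, adjusted p = 0.031) and CDKN2A (-0.27, adjusted p = 0.0369), by edgeR. Among all 15130 genes tested, 11.4% were lower at an adjusted p under 0.05. With the trend described next removed, CDH1 was at -0.79, KRT18 at -0.20, KRT17 at -0.08 and CDKN2A at -0.07, and the first pair was still called (adjusted p = 8.84e-05 and 0.00873, edgeR). The part of these differences in the values of the neighbours was not tested. The log2 fold change also fell along the GC content of the transcript over 15107 genes (Spearman's rho -0.581, a description across genes that share the same 6 libraries). Values after removal of the trend that each library showed along GC content and transcript length are given for most tested neighbours and for some other genes.

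The targeted gene followed the sample names. P4HA3 (ENSG00000149380) lies on chromosome 11 of GRCh38, 74235801 to 74311640, on the minus strand. It had 86, 62 and 93 counts in control replicates 1, 2 and 3, and 45042, 44775 and 49097 counts in P4HA3-overexpressing replicates 1, 2 and 3. The mean of the controls was 3.41 ± 0.456 CPM and that of the overexpressing samples 1950 ± 32.5 CPM (SD, n = 3 each). On the log2 scale P4HA3 was higher by 9.15 (standard error 0.101, Benjamini-Hochberg adjusted p = 3.19e-12 in the quasi-likelihood test of edgeR).

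P4HA3-AS1 (ENSG00000246211), a long non-coding RNA gene on the plus strand, was the neighbour with the largest difference. It begins inside the first intron of P4HA3 and reads away across the P4HA3 start, from 74311362 to 74324705, and the annotated starts of the genes are 278 bases apart. Its exons and those of P4HA3 share 38 bases on opposite strands, and all 38 belong to the coding sequence of P4HA3 exon 1.

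No read of P4HA3-AS1 was counted in control cells, at 0, 0 and 0 counts in replicates 1, 2 and 3. With P4HA3 overexpression it had 49, 33 and 42 counts, or 2.10, 1.47 and 1.65 CPM (mean 1.74 ± 0.327, SD, n = 3). Every overexpressing library thus lay above every control library, and the gene stayed a low one throughout, at 0.807 CPM per kb of transcript beside 866 CPM per kb for P4HA3 in the same cells. Against a floor of 3 counts per control library, which is 0.129 CPM, P4HA3-AS1 was at least 13.5-fold higher, or at least 3.76 on the log2 scale (Benjamini-Hochberg adjusted p = 0.000485 in the same edgeR test, higher in 3 of 3 samples). The gene passed the filter on low counts only through the overexpressing libraries, so its call describes these counts and is no independent support. It was called in each of the 14 alternatives that gave it an adjusted p, with a bound between 3.60 and 3.86 on the log2 scale and adjusted p values up to 0.00901. DESeq2 gave it no adjusted p, and the filter of at least 10 counts in every library dropped it. The 14 alternatives rest on the same counts, and the bound divides them by the fixed floor of 3, so they add no independent support.

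The counts of P4HA3-AS1 were small beside those of P4HA3. In the overexpressing libraries they were between 0.0737% and 0.109% of the P4HA3 counts, and over the 3 libraries 124 reads stood beside 138914, or 0.0893%. At that share, the 241 P4HA3 reads of the 3 control libraries would be matched by 0.215 reads of P4HA3-AS1, so the 0 counts of control cells could not have shown a share of this size. Whether the antisense reads scale with P4HA3 reads was therefore not detectable at this depth in control cells.

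Annotated overlaps elsewhere in the genome were also described, without a test of how the reads of P4HA3-AS1 arose. Of 371 genes whose exons were covered to at least 95% by exons of a gene on the opposite strand with at least 1000 reads, 137 (36.9%) had at least 10 reads. Where the covering gene lay on the same strand, 6 of 129 genes (4.65%) had at least 10 reads. The strand setting of the counting is not stated, and the difference between these shares was not tested. In 56 pairs, a long non-coding gene had 20 to 200 exon bases opposite a coding gene of at least 300 CPM in control cells. The set was chosen after the value of P4HA3-AS1 had been seen, and MYL12-AS1 is in it with both MYL12B and MYL12A. Over all libraries, the counts ranged from 0 to 5.51% of the partner's counts with a median of 0.0638%. P4HA3-AS1, at 0.0893% over the overexpressing libraries alone, stood above 33 of these pairs and below 23. The measures are unlike, since the P4HA3 counts include those of the added cDNA, whereas no copy of the partners was added. The counts carry no position within a gene. Whether the reads of P4HA3-AS1 came from the 38 shared bases or from the rest of its exons was therefore not tested.

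Genes with the pattern of P4HA3-AS1 were then counted, by a rule shaped on its own counts, which it meets by construction. It was the 1 gene with 0 counts in all control libraries and at least 10 counts in every overexpressing library, and 0 genes showed the reverse. With up to 3 counts allowed in each library of the low group, BMP5, which encodes a bone morphogenetic protein, joined it, and CSF3, which encodes the granulocyte colony-stimulating factor, was the 1 gene of the reverse pattern.

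**Figure D1:**
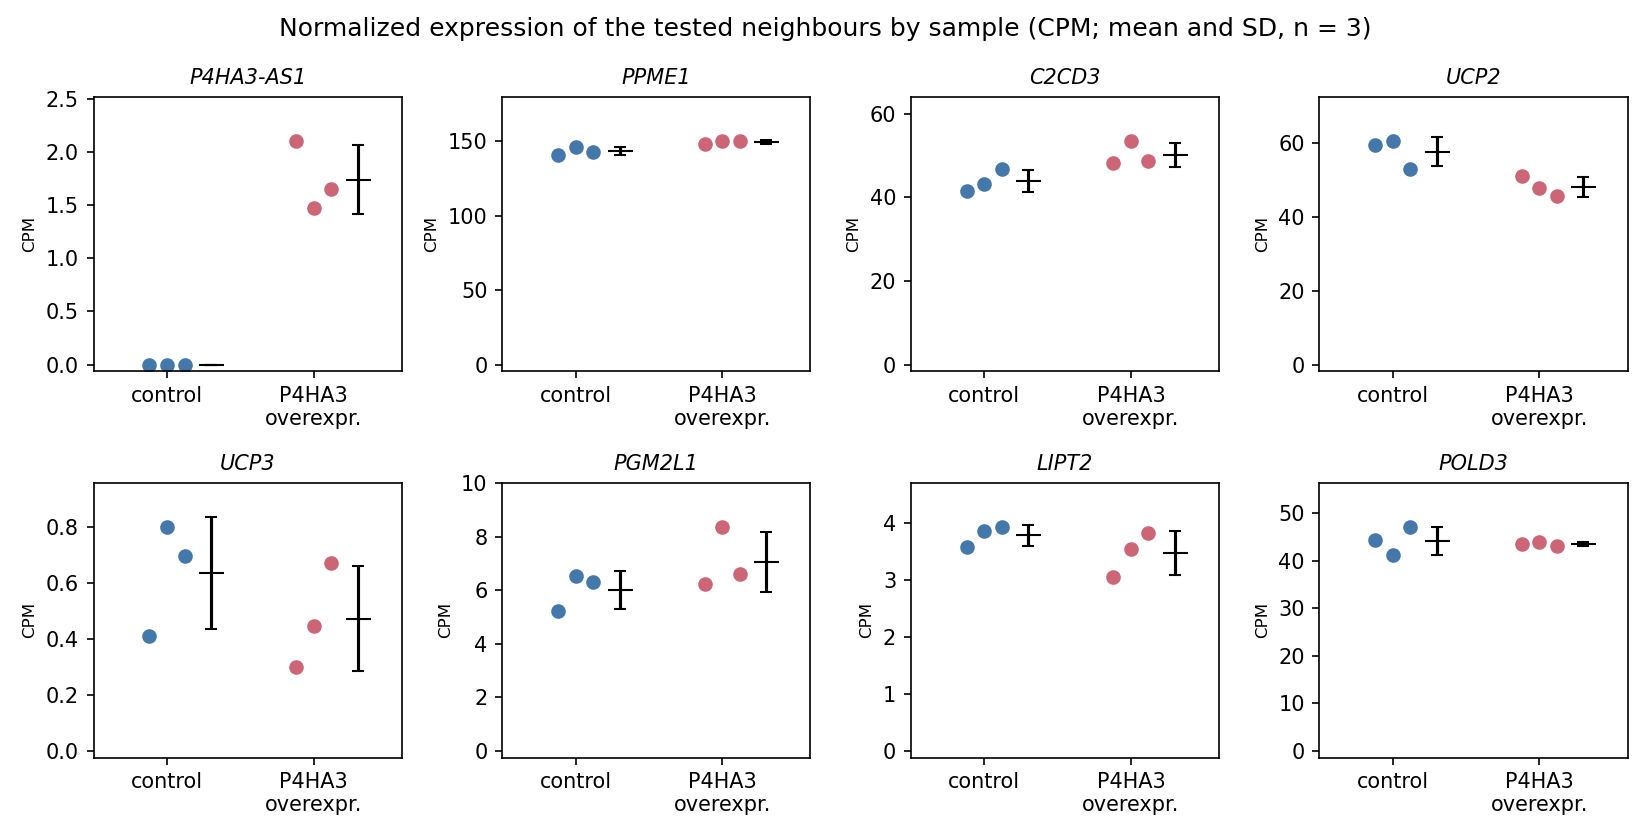
Normalized expression of the 8 tested neighbours in each library, as CPM on a linear axis that holds 0, with controls in blue, P4HA3 overexpression in red, and the mean with its SD in black (n = 3 per group). P4HA3-AS1 is at 0 in the 3 control libraries and between 1.47 and 2.10 CPM with overexpression, whereas the groups of UCP3, PGM2L1, LIPT2 and POLD3 overlap.

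Over the 8 tested neighbours, 1 gene was higher (P4HA3-AS1) and 1 lower (UCP2) at an adjusted p under 0.05. P4HA3-AS1 enters this count, and the counts within 1 Mb below, after passing the filter only through the overexpressing libraries. Over all 15130 genes tested, 9.36% were higher and 11.4% lower by the same rule, so 1 of 8 in each direction is close to the background. The groups did not overlap for 4 of the 8 (P4HA3-AS1, PPME1, C2CD3 and UCP2), beside 40.1% of all genes tested. The median log2 fold change of the 8 was 0.02 with P4HA3-AS1 at its bound and -0.02 over the other 7, and it was 0.0055 over all genes tested. With the trend on GC content and length removed, P4HA3-AS1 was the 1 neighbour called higher and 0 were lower, where 10.6% of genes were higher and 7.96% lower.

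PPME1 (ENSG00000214517) overlaps P4HA3 at its other end. It encodes the methylesterase that removes the methyl group from the catalytic subunit of protein phosphatase PP2A, and it runs on the plus strand from 74171267 to 74254703, so that 166 bases of its exons lie opposite P4HA3 exons, none of them in the P4HA3 coding sequence. It was the most abundant neighbour per length, at 57.7 CPM per kb in control cells.

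PPME1 read 141, 146 and 143 CPM in control replicates 1, 2 and 3, and 148, 150 and 150 CPM in overexpressing replicates 1, 2 and 3. All 3 overexpressing values were above the controls, by a margin that was small beside the level itself. The means were 144 ± 2.44 and 149 ± 1.57 CPM (SD, n = 3 each), a log2 fold change of 0.06 with a 95% interval from -0.05 to 0.17 (adjusted p = 0.42, edgeR). With between 3117 and 3818 counts per library, the interval reached no further than 0.17 on the log2 scale, where P4HA3 itself stood at 9.15. With the trend on GC content and length removed the value was 0.12 (adjusted p = 0.0574, edgeR).

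C2CD3 (ENSG00000168014) encodes a centriole protein needed for the distal appendages and for the growth of primary cilia. It lies back to back with PPME1, on the minus strand from 74012718 to 74171210, and the GENCODE starts of this pair are 57 bases apart. The stretch between them is printed here because both GENCODE starts lie in it and the groups did not overlap for either. It is the RefSeq window of PPME1 from 250 bases before to 50 bases after its RefSeq start (GRCh38.p14, chr11:74171039-74171338, plus strand, 62.3% GC), with matches on either strand in capitals for 4 motifs, the GC box core GGGCGG, the CAAT box CCAAT, the TATA box TATAAA and the ETS-type motif CCGGAAG.
PPME1 promoter: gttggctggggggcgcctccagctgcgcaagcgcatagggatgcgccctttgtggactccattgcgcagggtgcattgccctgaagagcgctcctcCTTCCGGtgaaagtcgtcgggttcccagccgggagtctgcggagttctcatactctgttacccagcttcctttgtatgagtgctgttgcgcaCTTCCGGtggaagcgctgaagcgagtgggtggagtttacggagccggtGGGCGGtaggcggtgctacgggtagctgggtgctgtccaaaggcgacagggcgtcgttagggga
The window holds GGGCGG once and CCGGAAG at 2 places, and the other motifs do not occur in these letters. Of the 35116 RefSeq windows of this length, 45.0% held GGGCGG and 10.3% held CCGGAAG, while CCAAT was found in 34.6% and TATAAA in 11.5%. Both CCGGAAG matches also lie in the RefSeq window of C2CD3 (chr11:74170953-74171252), which is read from the other strand and overlaps the printed window in part. The RefSeq start of C2CD3 lies outside the printed window, unlike its GENCODE start.

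In control replicates 1, 2 and 3, C2CD3 read 41.6, 43.2 and 46.7 CPM. In overexpressing replicates 1, 2 and 3 it read 48.2, 53.4 and 48.7 CPM, each above every control. The means were 43.8 ± 2.61 and 50.1 ± 2.91 CPM (SD, n = 3 each), with a log2 fold change of 0.19, a 95% interval from 0.03 to 0.35 and an adjusted p of 0.0782 (edgeR), which missed the threshold. C2CD3 was at 0.14 (adjusted p = 0.0639, edgeR) with the trend on GC content and length removed. It was called without overexpressing replicate 1 (0.22, adjusted p = 0.0403, edgeR) and in no other of its 16 alternatives. The values of PPME1 and C2CD3 thus lay on the same side of 0, at 0.06 and 0.19, and whether the difference between these changes exceeds their error was not tested.

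UCP2 (ENSG00000175567) was the 1 neighbour called lower. It encodes a carrier of the inner mitochondrial membrane of the uncoupling protein family, and it lies on the minus strand from 73974672 to 73982843, 253 kb from the P4HA3 body. Control replicates 1, 2 and 3 read 59.3, 60.4 and 53.0 CPM, and overexpressing replicates 1, 2 and 3 read 51.0, 47.7 and 45.6 CPM. The groups did not overlap, although the lowest control and the highest overexpressing sample were close to each other.

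The means of UCP2 were 57.6 ± 4.02 and 48.1 ± 2.68 CPM (SD, n = 3 each), a fitted change of -16.5%. On the log2 scale this was -0.26 (standard error 0.0727, 95% interval from -0.42 to -0.10, Benjamini-Hochberg adjusted p = 0.0322 in the same edgeR test, lower in 3 of 3 samples). UCP2 has a GC content of 57.1%, and the median log2 fold change of the 1157 tested genes around 56.3% GC was -0.11. After removal of this trend the log2 fold change of UCP2 was -0.09 and the call was lost (adjusted p = 0.272, edgeR). With the replicate number also fitted as a block, it was -0.09 again (adjusted p = 0.193, edgeR). The call stood in 11 of the 16 alternatives. It was also lost without control replicate 1 (-0.24, adjusted p = 0.135), without control replicate 2 (-0.22, adjusted p = 0.142) and without overexpressing replicate 3 (-0.22, adjusted p = 0.13), by the same edgeR test.

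UCP3 (ENSG00000175564), the uncoupling protein typical of skeletal muscle, lies beside UCP2 from 74000277 to 74009085 and was near the floor of detection. It had 10, 17 and 17 counts in control replicates 1, 2 and 3 and 7, 10 and 17 counts in overexpressing replicates 1, 2 and 3, so the groups overlapped. Its log2 fold change was -0.39 with a 95% interval from -1.20 to 0.42 (adjusted p = 0.447, edgeR), an interval that holds the value of UCP2 and 0 alike. UCP3 was at -0.29 (adjusted p = 0.629, edgeR) with the trend on GC content and length removed. Per length, UCP2 stood at 35.0 and UCP3 at 0.278 CPM per kb in control cells.

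LIPT2 and POLD3 form the second divergent pair, on the telomeric side of P4HA3. LIPT2 (ENSG00000175536), which encodes the mitochondrial octanoyltransferase of lipoate synthesis, runs on the minus strand from 74490519 to 74493724. POLD3 (ENSG00000077514), an accessory subunit of DNA polymerase delta that polymerase zeta also uses, runs on the plus strand from 74493851 to 74669117, and 127 bases separate the starts. The RefSeq window of LIPT2 (GRCh38.p14, chr11:74493675-74493974, minus strand, 64.3% GC) is printed because it also holds the annotated start of POLD3, with the same motifs in capitals.
LIPT2 promoter: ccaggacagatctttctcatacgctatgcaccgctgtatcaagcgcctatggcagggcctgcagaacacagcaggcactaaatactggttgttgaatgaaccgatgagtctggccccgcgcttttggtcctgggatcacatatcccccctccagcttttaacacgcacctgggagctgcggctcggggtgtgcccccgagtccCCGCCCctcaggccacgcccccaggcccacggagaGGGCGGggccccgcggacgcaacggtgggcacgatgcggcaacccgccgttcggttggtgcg
It holds GGGCGG at 2 places, on either strand, and the other motifs do not occur in these letters.

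POLD3 read 44.3, 41.2 and 47.0 CPM in control replicates 1, 2 and 3 and 43.5, 43.9 and 43.2 CPM in overexpressing replicates 1, 2 and 3, so that the overexpressing samples lay inside the range of the controls. The means were 44.2 ± 2.91 and 43.6 ± 0.352 CPM (SD, n = 3 each), and the log2 fold change was -0.02 with a 95% interval from -0.17 to 0.13 (adjusted p = 0.839, edgeR). With the trend on GC content and length removed it was -0.14 (adjusted p = 0.0762, edgeR). LIPT2 read 3.57, 3.85 and 3.92 CPM in the controls and 3.05, 3.55 and 3.82 CPM with overexpression, which overlapped, for a log2 fold change of -0.12 with a 95% interval from -0.41 to 0.18 (adjusted p = 0.532, edgeR). Its value was -0.08 (adjusted p = 0.7, edgeR) with the trend on GC content and length removed. The levels of this pair differed far more than either changed, at 11.7 CPM per kb for POLD3 and 1.62 CPM per kb for LIPT2 in control cells. LIPT2-AS1, which starts inside LIPT2 on the other strand and is not among the 10, had means of 2.26 and 2.54 CPM (adjusted p = 0.461, edgeR).

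PGM2L1 (ENSG00000165434) is the next coding gene beyond the P4HA3 start, on the minus strand from 74330316 to 74398433 and 18.7 kb from the P4HA3 body. It encodes the enzyme that makes glucose 1,6-bisphosphate, the cofactor of phosphoglucomutases. Control replicates 1, 2 and 3 read 5.21, 6.52 and 6.33 CPM and overexpressing replicates 1, 2 and 3 read 6.22, 8.35 and 6.62 CPM. The groups overlapped, and overexpressing replicate 2 stood above the other 5 samples.

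The log2 fold change of PGM2L1 was 0.23 with a 95% interval from -0.08 to 0.54 (adjusted p = 0.249, edgeR), and it turned to -0.03 with the trend on GC content and length removed. Its transcript has the lowest GC content of the 10 neighbours, at 38.1%, and the 1349 tested genes around 38.9% GC had a median log2 fold change of 0.22.

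KCNE3 and CHRDL2 had almost no reads. KCNE3 (ENSG00000175538), a beta subunit of voltage-gated potassium channels on the minus strand from 74454841 to 74467729, had 0, 0 and 0 counts in control replicates 1, 2 and 3 and 1, 1 and 0 counts in overexpressing replicates 1, 2 and 3. CHRDL2 (ENSG00000054938), a secreted chordin-like antagonist of bone morphogenetic proteins on the minus strand from 74696429 to 74731426, had 1, 1 and 2 counts in the controls and 1, 3 and 2 counts with overexpression. All 12 values were at or under the floor of 3 counts, and a difference was not detectable at this depth.

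**Figure D2:**
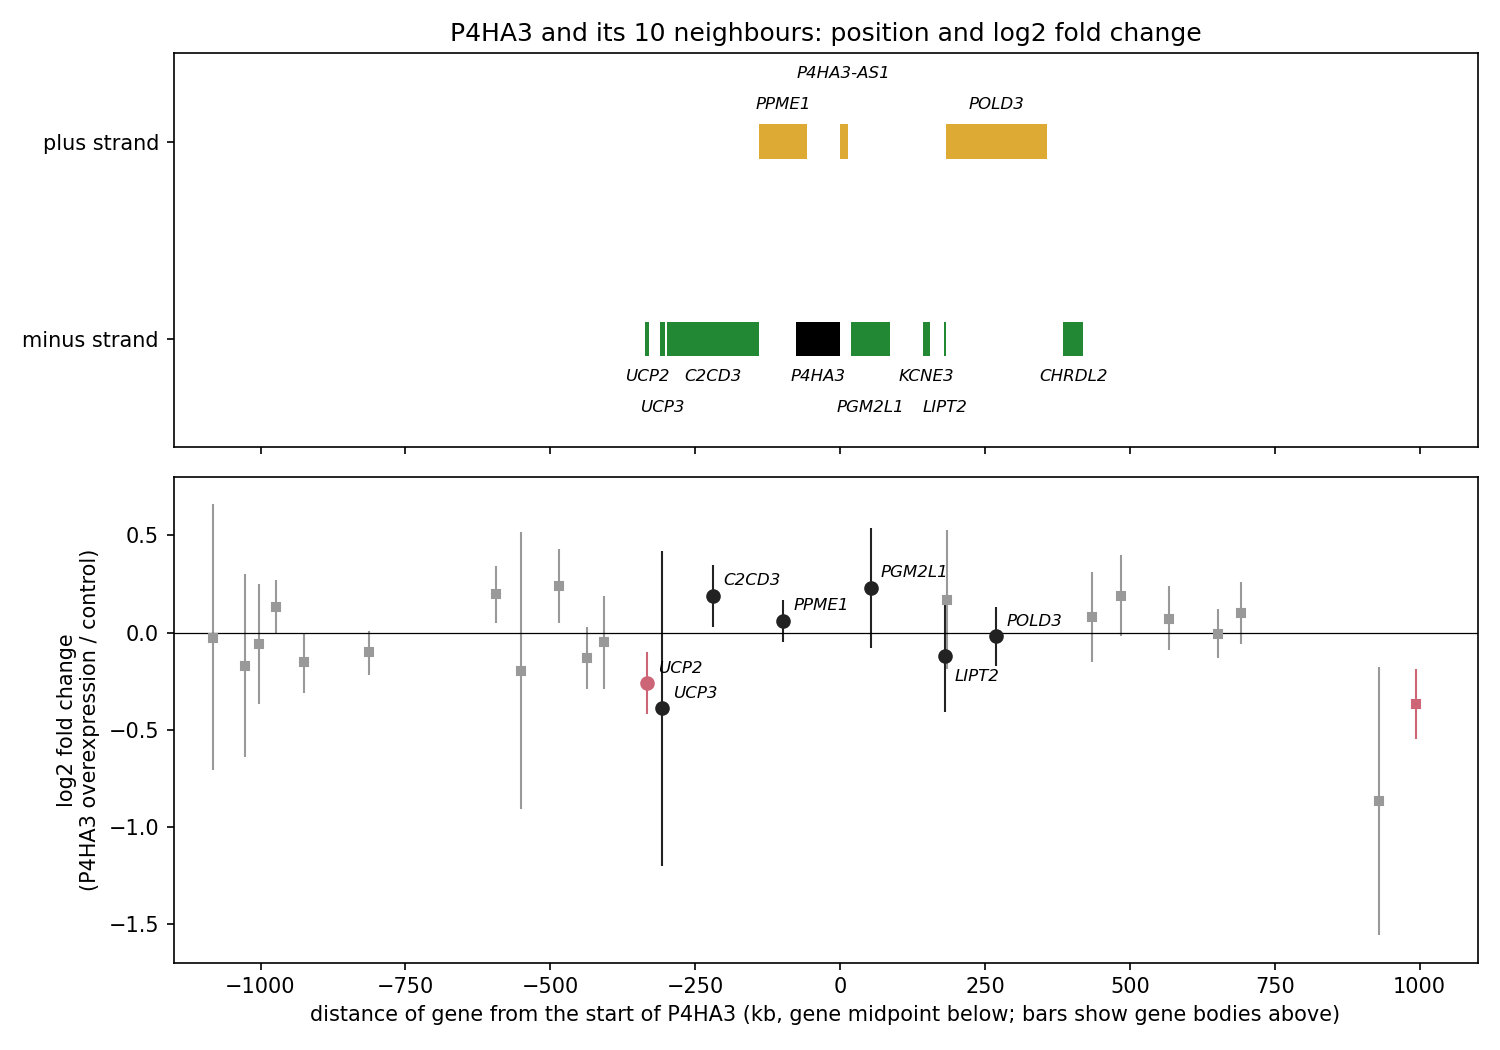
P4HA3 (black) and its 10 neighbours drawn to scale by strand (upper panel), and the log2 fold change with its 95% interval at the midpoint of each tested gene within 1 Mb (lower panel), both along the distance in kb from the P4HA3 start. Circles are neighbours, squares other genes, and red marks an adjusted p under 0.05 with a negative value (UCP2 at -0.26 and ARRB1 at -0.37). P4HA3-AS1, at least 3.76, is off the scale and not drawn.

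Ordered by level per length in control cells, the neighbours ran from PPME1 (57.7 CPM per kb) through UCP2 (35.0), POLD3 (11.7), C2CD3 (5.52), LIPT2 (1.62), PGM2L1 (0.71) and UCP3 (0.278) to CHRDL2 (0.0296), KCNE3 and P4HA3-AS1, which were both at 0. P4HA3 itself stood between LIPT2 and PGM2L1 at 1.51 CPM per kb. The order of LIPT2 and P4HA3 was within the spread of the samples, and the last 3 genes were at or under the floor in control cells. The other adjacent genes differed by more than their SDs.

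The genes around P4HA3 were also counted by position alone. Of 80 genes whose bodies lie within 1 Mb, 27 were tested, of which 1 was higher (P4HA3-AS1) and 2 lower (UCP2 and ARRB1), or 11.1%, beside 20.8% of all genes tested and 26.6% of the 785 genes tested on the rest of chromosome 11. Their groups did not overlap for 11 of 27 genes, where 40.1% of all genes tested showed this, and the median log2 fold change was -0.02 with P4HA3-AS1 at its bound, 0.0055 over all genes tested and -0.063 over the rest of the chromosome. ARRB1, which encodes beta-arrestin 1 and lies 948 kb away, had means of 30.7 CPM in control and 23.7 CPM in overexpressing samples, and its log2 fold change was -0.37 (SE 0.0814, adjusted p = 0.0139, edgeR). Its value was -0.33 with the trend on GC content and length removed (adjusted p = 0.0195, edgeR), and it lost the call without control replicate 1 (adjusted p = 0.0775), control replicate 2 (adjusted p = 0.051) or overexpressing replicate 3 (adjusted p = 0.0652), by edgeR.

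The other tested coding genes within 500 kb were not called. RAB6A, a small GTPase of Golgi transport, had a log2 fold change of 0.20 (adjusted p = 0.0536, edgeR), which was 0.04 with the trend on GC content and length removed. MRPL48, a protein of the large mitochondrial ribosome subunit, had 0.24 (adjusted p = 0.0729, edgeR), and with the trend removed it had 0.26 and was called (adjusted p = 0.0244, edgeR). COA4 (-0.13), PAAF1 (-0.05), RNF169 (0.19) and XRRA1 (0.07) had adjusted p values of 0.156 or more. Without overexpressing replicate 1, the calls within 1 Mb rose from 3 to 8, and without control replicate 1, control replicate 2 or overexpressing replicate 3 they fell to 1, P4HA3-AS1.

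**Figure D3:**
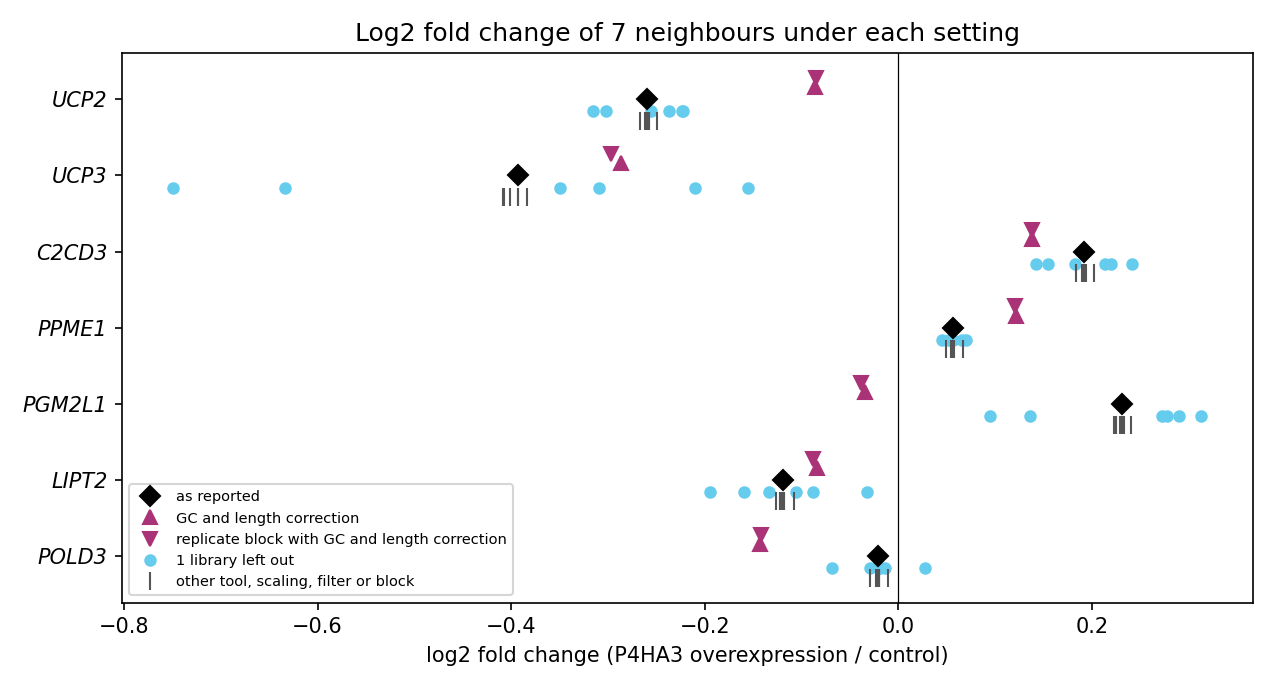
Log2 fold change of 7 tested neighbours in the test as reported (black diamonds), with the trend on GC content and length removed (triangles), with 1 library left out (blue circles) and under other tools, scalings, filters or the replicate block (ticks). PGM2L1 crosses 0 and UCP2 moves from -0.26 to -0.09 once the trend is removed, whereas C2CD3 and PPME1 stay above 0 throughout.

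The neighbours were next set beside the genes they work with, in 8 lists of 59 genes drawn up by function. Of the 50 genes tested, 10 were higher and 4 lower, or 28% called, beside 20.8% of all genes tested (9.36% higher and 11.4% lower). The median log2 fold change was 0.17, or 0.05 with the trend on GC content and length removed. The calls rested on the libraries used, since without control replicate 1, control replicate 2 or overexpressing replicate 3 the 2 that stayed were NOG and SCLT1, and without overexpressing replicate 1 there were 27. NOG and SCLT1 were called in all 16 alternatives, and the other 12 in between 5 and 12.

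Among the uncoupling proteins and close mitochondrial carriers, 5 of 6 genes were tested, 1 was lower (UCP2) and 1 higher, or 40.0% called, beside 20.8% of all genes tested. The latter was SLC25A30, a mitochondrial carrier of the same family, with means of 18.6 and 23.0 CPM and a log2 fold change of 0.31 (adjusted p = 0.0285, edgeR), or 0.14 (adjusted p = 0.136) with the trend on GC content and length removed. UCP1, the uncoupling protein of brown fat, was at 0 counts in all 6 libraries. SLC25A30 thus differed in the opposite direction to UCP2.

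Of the 8 genes for the PP2A core subunits and their methylation enzymes, 3 were higher and 0 lower, or 37.5% called, beside 20.8% of all genes tested, with a median log2 fold change of 0.099. The higher genes were the catalytic subunit genes PPP2CA (0.23, adjusted p = 0.0212, edgeR) and PPP2CB (0.21, adjusted p = 0.0355, edgeR) and the regulatory subunit gene PPP2R2A (0.29, adjusted p = 0.0245, edgeR). LCMT1, which adds the methyl group that PPME1 takes off, had a log2 fold change of -0.10 (adjusted p = 0.362, edgeR), beside 0.06 for PPME1. With the trend on GC content and length removed, PPP2CB was still called at 0.22 (adjusted p = 0.0119, edgeR), while PPP2CA was at 0.06 and PPP2R2A at 0.08.

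The 11 centriole distal end proteins, C2CD3 among them, were all tested, and 10 (90.9%) had a log2 fold change above 0, as had 50.7% of all genes tested. Of the 11, 1 was called (9.09%), beside 20.8% of all genes tested. SCLT1, a distal appendage protein, rose from 4.57 ± 0.384 to 8.06 ± 1.29 CPM (SD, n = 3 each), with a log2 fold change of 0.81 (adjusted p = 0.00496, edgeR), which was 0.66 with the trend on GC content and length removed (adjusted p = 0.00202, edgeR). The list had a median log2 fold change of 0.31, which was 0.14 with the trend removed. Without the correction, the 0.19 of C2CD3 lay below the middle of its list and above the median of all genes. With the trend removed, C2CD3 was at 0.14, the same as the list median at this rounding. With the trend removed, CEP164, another distal appendage protein, was also called, at 0.30 (adjusted p = 0.00314, edgeR), after 0.20 (adjusted p = 0.0687, edgeR) without the correction.

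Of the 5 phosphoglucomutases, 3 were higher and 1 lower, or 80.0% called, beside 20.8% of all genes tested. PGM2 (0.34, adjusted p = 0.0125, edgeR), the closest relative of PGM2L1, and PGM3 (0.33, adjusted p = 0.0327, edgeR), which acts in the synthesis of UDP-N-acetylglucosamine, were higher, whereas PGM1 (-0.20, adjusted p = 0.0396, edgeR), the main glucose enzyme of the family, was lower. PGM5, which has near-identical pseudogene copies so that its counts are uncertain, was higher by 1.21 on the log2 scale (adjusted p = 0.018, edgeR) from 0.552 CPM in control cells. PGM2L1 at 0.23 was the 1 member not called. With the trend on GC content and length removed, PGM1 (-0.15, adjusted p = 0.0307) and PGM5 (1.28, adjusted p = 0.0115) were still called by edgeR, and PGM2 at 0.16 and PGM3 at 0.11 were not.

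Of the 7 subunits of DNA polymerases delta and zeta and their clamp, 1 was called (14.3%), beside 20.8% of all genes tested. POLD2, the second delta subunit, was lower at -0.25 (adjusted p = 0.0494, edgeR) and none was higher. POLD1, the catalytic subunit, had -0.22 (adjusted p = 0.054, edgeR), and both POLD1 and POLD2 were within 0.04 of 0 with the trend on GC content and length removed. In the lipoylation list, with LIPT2, 1 of 8 genes was called (12.5%), beside 20.8% of all genes tested. The call was DLAT, the lipoylated subunit of pyruvate dehydrogenase, at 0.19 (adjusted p = 0.0468, edgeR), and it was 0.02 with the trend removed.

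The KCNE list was mostly too low to test. Among the KCNE subunits and KCNQ1, only KCNQ1, the channel pore partner, was tested of 6 genes, with a log2 fold change of -0.16 (adjusted p = 0.707, edgeR). Of 8 secreted antagonists of bone morphogenetic proteins, 5 were tested, of which 1 was higher and 1 lower, or 40.0% called, beside 20.8% of all genes tested. NOG, which encodes noggin, rose from 5.13 ± 0.326 to 10.5 ± 1.39 CPM (SD, n = 3 each), a log2 fold change of 1.03 (adjusted p = 0.00114, edgeR), and CHRD, which encodes chordin, fell from 2.74 ± 0.388 to 1.67 ± 0.222 CPM, a log2 fold change of -0.70 (adjusted p = 0.0206, edgeR). With the trend on GC content and length removed they were at 1.24 (adjusted p = 0.0002, edgeR) and -0.44 (adjusted p = 0.0776, edgeR), and FSTL3, which encodes a follistatin-like protein, went from 0.05 to 0.31 and was called (adjusted p = 0.000465, edgeR). CHRDL2 itself stayed at the floor in both groups beside these changes.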

How the data were processed

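RNA-seq of 3 control and 3 P4HA3-overexpressing samples of SiHa PR cells was used. The authors purified poly-A RNA, made strand-specific dUTP libraries and counted reads per gene with HTSeq, and the deposited values are raw counts per Ensembl gene, without normalization. The aligner is STAR in the supplementary methods and HISAT2 in the submitters' processing notes, both on GRCh38. The strand setting of the counting is not given in the sources used here. The growth protocol in the labels describes a tissue, whereas the cell line label and the paper give SiHa, which was used.

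Genes were filtered with filterByExpr (minimum count 10), normalized by TMM and tested with the quasi-likelihood test of edgeR 4.0.16 in R 4.3.3, two-sided, with Benjamini-Hochberg adjustment over 15130 genes, a call being an adjusted p under 0.05. A standard error is the log2 fold change divided by the root of the F statistic. Nothing in the labels says that samples of a group were separate cultures, so p-values measure the spread between these samples, which may be technical. Within groups, no pair of libraries was alike within counting error (chi-square over its degrees of freedom, 4.79 to 16.2). Intervals and the floor of 3 counts cover counting and sample spread only. Positions, exon overlaps and GC content come from GENCODE release 44 on GRCh38, which matched 60463 of 60664 identifiers. Promoter windows of 7 of the 11 genes looked up come from RefSeq (GRCh38.p14). The sequence shared by P4HA3 and P4HA3-AS1 is not reported here.

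Alternatives were DESeq2 1.42.0, limma-voom 3.58.1, RLE and upper-quartile scaling, P4HA3 left out of the library sizes, no filter, at least 10 counts in every library, the replicate number as a block, a GC and length correction (smooth terms from mgcv 1.9.3 as an offset), both together, and each library left out. The correction removes any part of a difference that follows GC content or length. The neighbours, the function lists and the tests were chosen with earlier results of these data known. The genes named are P4HA3, the 10 neighbours, every other tested coding gene within 500 kb, genes of the function lists or within 1 Mb with an adjusted p under 0.05, and genes with the pattern of P4HA3-AS1, while LCMT1, POLD1, KCNQ1, UCP1, LIPT2-AS1, BMP5, CSF3, FSTL3, CEP164 and the marker genes were chosen after their values were seen.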

Additional observations from a re-analysis of the deposited data

How the results depend on the processing

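The direction of P4HA3, P4HA3-AS1, PPME1, C2CD3, UCP2, UCP3 and LIPT2 was kept in every alternative run. PGM2L1 turned from 0.23 to -0.034 with the GC and length correction and to -0.038 with that correction and the replicate block, and POLD3 turned from -0.02 to 0.028 without control replicate 3 (range with each library left out, -0.068 to 0.028). The log2 fold change of P4HA3 stayed between 9.06 and 9.24 with each library left out. The number of neighbours called was 2 as reported. It was 1 with DESeq2 (UCP2), where P4HA3-AS1 had no adjusted p, 1 with at least 10 counts in every library (UCP2), which by construction drops P4HA3-AS1, 1 with the GC and length correction (P4HA3-AS1), and between 1 and 3 with each library left out. The same replicate numbers did not pair the samples, with correlations of 0.25, -0.0486 and 0.0297 for numbers 1, 2 and 3. Between unlike numbers, the correlations ran from -0.302 (control 3 with overexpressing 1) to 0.268 (control 3 with overexpressing 2). The replicate block alone kept 2 calls, and together with the GC and length correction it gave 3, P4HA3-AS1, PPME1 (0.12, adjusted p = 0.0307, edgeR) and POLD3 (-0.14, adjusted p = 0.0432, edgeR). Calls within 1 Mb, 3 as reported, numbered 5 without the filter, 6 with the block, 8 with block and correction, and between 1 and 8 with each library left out. Calls in the function lists, 14 as reported, numbered 23 without the filter, 7 with the correction and between 2 and 27 with each library left out. Over all genes, 1416 were higher, against 2384 without the filter, 2138 with the block, 2141 with block and correction and between 163 and 2814 with each library left out, and 1731 were lower, between 371 and 2716. Where no cause is named, the cause was not tested. Depth limits UCP3, KCNE3, CHRDL2 and the control level of P4HA3-AS1.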
